A study of Mus musculus with 12 samples.

Results

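Complement genes were followed in cells labelled glomerular endothelial cells (GEC), sorted from wild type (WT) and Alport syndrome (AS) mice. They were 9 in all, *C1qa*, *C1qb*, *C1qc*, *C3*, *C4b*, *C3ar1*, *C5ar1*, *Cfp* and *Cd55*, taken by gene name from the count tables. All 9 were listed in both tables, of 17811 genes in the table of dim tdT cells and 17521 in that of bright tdT cells, 15768 of them in both. Every mouse was of the C57BL/6 strain, 4 months of age and carried the TekCre tdTomato reporter, in which the Tek promoter drives Cre and so the red protein tdT in endothelial cells of any vessel. The AS mice were labelled Col4a5 -/-, lacking a collagen chain of the glomerular basement membrane, and the WT mice wild type, with no treatment named in either. Glomeruli were sieved from the cortex, digested and sorted on size, single cells and tdT intensity, and no antibody to leukocytes is named in the sort. Each of 3 WT and 3 AS mice gave 1 dim tdT and 1 bright tdT library, 12 libraries in 4 groups, with 11440169 to 15074909 counts on genes.

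Complement is a cascade of plasma proteins that tags surfaces and cells for removal. C1q, made of the chains of *C1qa*, *C1qb* and *C1qc*, starts the classical pathway, in which C4 and then C3 are cleaved, while properdin, the product of *Cfp*, stabilises the convertase of the alternative pathway. The fragments C3a and C5a act through the receptors encoded by *C3ar1* and *C5ar1*, and CD55, also called decay-accelerating factor, takes convertases apart on the cell's own surface. Macrophages are a well-known source of C1q, and the glomerular capillary is a known site of complement deposition.

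The cell type on the labels was compared with marker lists before the complement genes were read. In CPM, a library's count scaled to its TMM-adjusted total, the 14 endothelial markers summed to 10923 to 18613 in the bright tdT and to 234 to 1401 in the dim tdT libraries. The 12 macrophage and monocyte markers summed to 5036 to 9465 in the WT-dim tdT and to 11216 to 14574 in the AS-dim tdT libraries, above the endothelial sum in every dim tdT library. Of those 12, the bright tdT table listed 9, with sums of 246 to 281 in WT and 327 to 410 in AS, and in each genotype 7 of the 9 were lower and 2, *Mrc1* and *Mertk*, higher in the bright tdT cells without overlap. In the dim tdT libraries *Lyz2* and *Cd14* gave most of the sum, and the other 10 markers summed to 729, 668 and 1290 in WT-dim tdT cells and to 1734, 1923 and 2523 in AS-dim tdT cells, below the endothelial sum of WT replicates 1 and 2. The 9 proximal tubule markers summed to 34.2 to 11681 in the dim tdT libraries, above both other sums in WT replicate 1. The dim tdT cells are called by their gate below. *Col4a5*, the gene disrupted in AS, read 69, 37.8 and 74.6 CPM in WT-dim tdT cells against 3.61, 1.99 and 1.36 in AS-dim tdT cells. It was lower by 4.69 on the log2 scale there (adjusted p = 0.00982), a call lost without AS-dim tdT replicate 1 or 3 (adjusted p up to 0.0968, with values of -5.21 to -4.41 over the 6 fits without 1 library), while the bright tdT libraries overlapped at 4.77 to 10 CPM in WT and 3.05 to 6.64 in AS. Without AS-dim tdT replicate 1 or 3, only 0 and 1 of all genes tested passed.

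**Figure D1:**
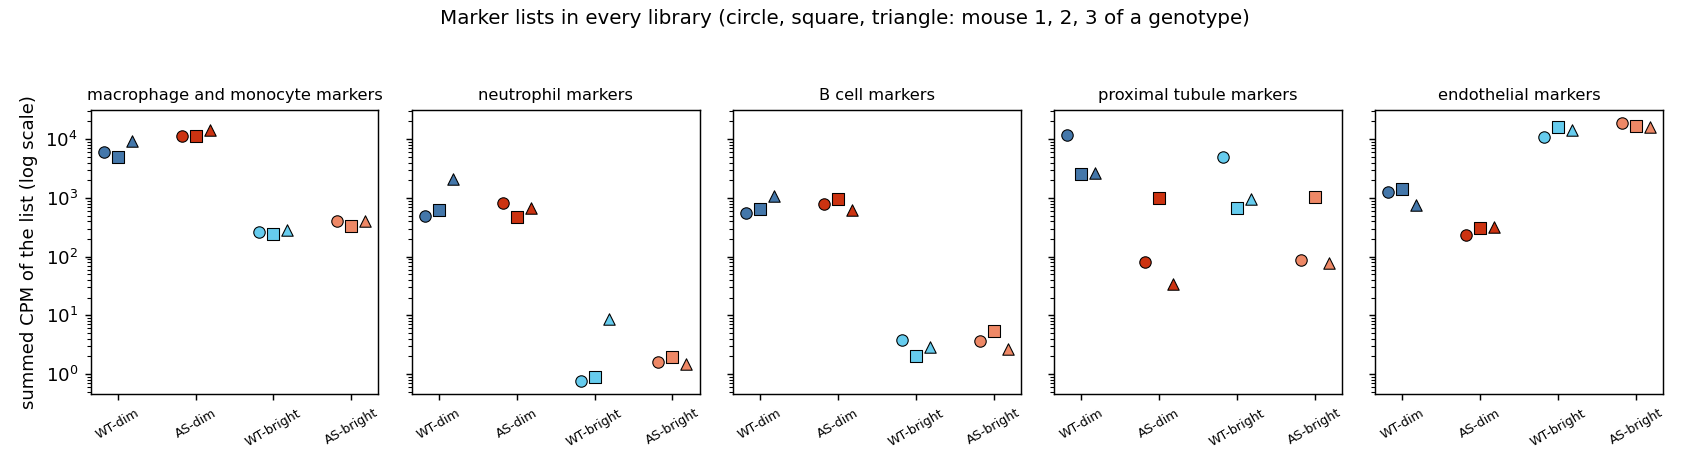
Summed CPM of 5 marker lists (vertical axis, log scale) in each library, by group on the horizontal axis, with a symbol for each mouse. The macrophage and monocyte sum lies at 5036 to 14574 in the dim tdT and at 246 to 410 in the bright tdT libraries, and the endothelial sum the other way round.

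In WT mice the RNA of the complement genes was mostly on the side of the dim tdT cells. Of the 8 that passed the filter on low counts, 8 were lower in the bright tdT cells among 14247 genes tested, and no dim tdT library overlapped a bright tdT library in any of the 8. The filter asks for 10 counts at the median library size in 3 libraries, and 6 of the 8 passed it through the dim tdT cells, where they are high, so the count describes them and gives no support for a direction. *C3* and *Cd55* reached that minimum in all 6 libraries. SE below is the standard error of a log2 fold change. Over all genes 11.5% were called lower in the bright tdT cells and 25.3% in either direction by edgeR's quasi-likelihood test (adjusted p below 0.05), and 42.2% did not overlap between the groups. In AS mice 9 of 9 were lower in the bright tdT cells, 5 of them passing the filter through the dim tdT cells and 4, *C1qc*, *C3*, *C3ar1* and *Cd55*, reaching its minimum in all 6 libraries, where 26.5% of 14052 genes were called lower, 55.1% in either direction, and 62.4% did not overlap. Sums of other leukocyte markers moved with the gate as well, the neutrophil sum from 464 to 2068 CPM in the dim tdT to 0.763 to 8.61 in the bright tdT libraries (2 of 8 markers listed there), the B cell sum from 562 to 1080 down to 2 to 5.49 (4 of 5) and the T and NK cell sum from 122 to 222 down to 0.841 to 6.71 (2 of 8), and their part was not tested. Since RNA of sorted cells was pooled, fewer cells of a type and less RNA per cell cannot be told apart.

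The 3 C1q genes lie next to each other within 18675 bases of chromosome 4 (GRCm38), *C1qb* at 136880129 to 136886187, *C1qc* at 136889804 to 136893065 and *C1qa* at 136895917 to 136898803, all on the minus strand, protein-coding and overlapped by no other annotated gene. *C1qb*, which encodes the B chain, read 5.28, 13.5 and 3.32 CPM in the WT-dim tdT libraries and 0, 0.0691 and 0 in the WT-bright tdT libraries. Its summed count was 255 in WT-dim tdT cells against 1 in WT-bright tdT cells, a ratio of 337 with an exact 95% interval of 59.9 to 13361 that covers counting error only. *C1qa*, the A chain, read 9.31, 5.69 and 2.21 CPM against 0.0636, 0.0691 and 0, or 196 counts against 2, a ratio of 130 with an interval of 35.4 to 1077. *C1qc*, the C chain, read 4.21, 21.9 and 4.51 CPM against 0.0636, 0.346 and 0 (log2 fold change -6.10, SE 1.12, adjusted p = 0.00161). In WT mice C1q RNA was thus close to or at the limit of detection in the bright tdT cells. The adjusted p was 0.00284 for *C1qa* and 0.00531 for *C1qb*. At a floor of 3 counts over the WT-bright tdT group the difference was -6.44 for *C1qa* and -6.81 for *C1qb*. The size of the difference rested in part on mouse 2. Without its dim tdT library it was -4.86 for *C1qc* and -7.02 for *C1qb*, and without its bright tdT library -7.85 (adjusted p = 0.0354) and -9.55 (adjusted p = 0.0285).

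In AS mice the C1q genes were detected in both subpopulations. *C1qa* read 8.21, 4.4 and 4.63 CPM in the AS-dim tdT and 1.63, 0.383 and 1.21 in the AS-bright tdT libraries (log2 fold change -2.43, SE 0.51, adjusted p = 0.00248). *C1qb* read 12.4, 9.96 and 9.42 against 0.637, 0.639 and 0.786 (log2 fold change -3.91, SE 0.40, adjusted p = 2e-05). *C1qc* read 31.8, 18.6 and 24 against 2.12, 0.894 and 2.86 (log2 fold change -3.66, SE 0.40, adjusted p = 3.19e-05). All 3 genes stayed lower in the bright tdT cells of AS mice under each of 14 alternatives. *C1qa* and *C1qb* passed the filter through the dim tdT cells, so for them this gives no support for a direction. *C1qc* reached its minimum in all 6 libraries.

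The RefSeq window of 250 bases before the start of *C1qb* is shown because this gene had the largest fitted WT difference of the 8 tested, and that of *C3* because it had the highest mean level per length in the dim tdT cells. Entries were held for 7 of the 9 genes, and *C1qa* and *C4b* had none. Short motifs were searched on both strands, GAGGAA (the core bound by PU.1, a factor of myeloid cells) and TTNNGCAA (a C/EBP-type site), which do not overlap in the windows shown. Matches are in capitals. The windows are chr4:136886201-136886450 and chr17:57228137-57228386 of GRCm38.p6, both on the minus strand and written 5′ to 3′.
C1qb: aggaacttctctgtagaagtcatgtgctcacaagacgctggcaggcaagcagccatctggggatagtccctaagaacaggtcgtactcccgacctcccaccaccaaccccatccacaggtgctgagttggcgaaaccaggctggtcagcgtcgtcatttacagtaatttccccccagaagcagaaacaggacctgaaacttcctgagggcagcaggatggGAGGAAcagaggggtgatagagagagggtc
C3: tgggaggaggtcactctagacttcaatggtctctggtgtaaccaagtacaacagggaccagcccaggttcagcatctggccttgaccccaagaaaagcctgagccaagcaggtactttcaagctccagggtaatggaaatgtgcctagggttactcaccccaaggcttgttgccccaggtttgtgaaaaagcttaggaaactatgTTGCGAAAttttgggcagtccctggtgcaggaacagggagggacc
GAGGAA was found in the windows of 2 of the 7 genes (*C1qb*, at 30 bases before the start, and *C1qc*), against 23.3% of 32851 RefSeq promoter windows of the same length. TTNNGCAA was found in 1 of 7 (*C3*, at 45 bases before the start, on the opposite strand), against 9.56%. The RefSeq start of *C1qb* lies 13 bases before the start of the gene in Gencode M21, from which the coordinates above are taken, and positions here count from the RefSeq start. These matches describe the letters of the windows and are not evidence of binding.

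*C3* (chromosome 17, 57203970 to 57228136, minus strand, protein-coding, holding the microRNA gene *Mir6978*) encodes the central protein of all pathways. It read 118, 111 and 220 CPM in WT-dim tdT cells against 6.11, 1.18 and 2.98 in WT-bright tdT cells (log2 fold change -5.34, SE 0.56, adjusted p = 0.000189). In AS it read 211, 200 and 355 CPM in the dim tdT and 1.63, 6.45 and 1.14 in the bright tdT libraries (log2 fold change -6.31, SE 0.52, adjusted p = 3.79e-06). The lowest dim tdT value of either genotype, 111, was far above the highest bright tdT value, 6.45. The difference was -6.07 in WT without bright tdT replicate 1, and -7.54 in AS without bright tdT replicate 2, the libraries in which *C3* was highest.

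*C4b* (chromosome 17, 34728380 to 34743882, minus strand, overlapped by no other annotated gene) encodes C4 and has a near-identical neighbour, *C4a*, 65209 bases away, so the division of reads between the 2 genes is uncertain. It had the lowest mean CPM of the 9 genes in the dim tdT cells of each genotype, with 8, 3 and 2 counts for WT (0.716, 0.258 and 0.17 CPM) against 22, 53 and 121 for AS (1.56, 4.4 and 9.66 CPM). In the bright tdT libraries its counts were 2, 0 and 0 for WT against 2, 21 and 5 for AS (0.142, 1.34 and 0.357 CPM). In WT it did not pass the filter, and the dim tdT group held 13 counts against 2, a ratio of 8.59 with a counting interval of 1.94 to 78.4. In AS the log2 fold change of bright over dim tdT was -2.97 (SE 0.82, adjusted p = 0.0113). It was -2.51 (adjusted p = 0.0561) without AS-bright tdT replicate 1, -2.72 (adjusted p = 0.0537) without replicate 3, -4.33 without AS-bright tdT replicate 2 and -2.19 without AS-dim tdT replicate 3.

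*Cfp* (chromosome X, 20925454 to 20931555, minus strand, overlapped by no other annotated gene) read 29.2, 6.81 and 9.78 CPM in WT-dim tdT cells against 0.636, 1.94 and 1.29 in WT-bright tdT cells. The log2 fold change was -3.46 (SE 0.74, adjusted p = 0.00839), and -2.62 (adjusted p = 0.017) without WT-dim tdT replicate 1, the library with the highest level. In AS properdin RNA read 19.1, 14.9 and 19.1 CPM in the dim tdT and 0.283, 1.47 and 0.429 in the bright tdT libraries (log2 fold change -4.52, SE 0.45, adjusted p = 1.82e-05) that was -5.62 without AS-bright tdT replicate 2.

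The C5a receptor *C5ar1* (chromosome 7, 16246743 to 16259540, minus strand, overlapped by no other annotated gene) had the largest difference of the 9 in AS. It read 53.6, 69.1 and 247 CPM in WT-dim tdT cells against 0.0636, 1.18 and 2.98 in WT-bright tdT cells (log2 fold change -6.37, SE 0.90, adjusted p = 0.000932). In AS it read 107, 100 and 122 against 0.496, 0.447 and 0.5 CPM (log2 fold change -7.79, SE 0.29, adjusted p = 3.16e-08). In WT, mouse 3 held the highest level in both subpopulations, and the difference was -5.34 without its dim tdT library and -7.57 without its bright tdT library. The C3a receptor *C3ar1* (chromosome 6, 122847138 to 122856161, minus strand, overlapped by no other annotated gene) was scarcer, at 1.79, 14.3 and 11.7 CPM in WT-dim tdT cells against 1.4, 0.346 and 1.49 in WT-bright tdT cells. WT-dim tdT replicate 1, at 1.79, lay only just above the bright tdT libraries. The log2 fold change of -3.00 (SE 0.85, adjusted p = 0.0297) missed the threshold in 5 of the 6 fits that left out 1 library, with -2.55 without WT-dim tdT replicate 2, -2.79 without replicate 3 and -3.23, -2.58 and -3.27 without WT-bright tdT replicates 1, 2 and 3 (adjusted p from 0.0648 to 0.113). In AS *C3ar1* read 27.8, 15.4 and 16.4 against 1.42, 0.703 and 1.72 CPM (log2 fold change -3.95, SE 0.43, adjusted p = 3.02e-05).

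*Cd55* (chromosome 1, 130439027 to 130462744, minus strand) is overlapped by the antisense gene *Gm16083*, and the strand used for counting was not stated, so reads of the pair cannot be told apart. It was the most abundant of the 9 genes in the bright tdT cells, at 14.9, 7.74 and 9.58 CPM in WT and 7.3, 21 and 8.79 in AS. In the dim tdT cells it read 98.9, 62.4 and 170 CPM in WT and 102, 114 and 80.5 in AS. The log2 fold change of bright over dim tdT was -3.27 in WT (SE 0.45, adjusted p = 0.000823) and -2.96 in AS (SE 0.37, adjusted p = 7.9e-05), and in AS it was -3.64 without bright tdT replicate 2.

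**Figure D2:**
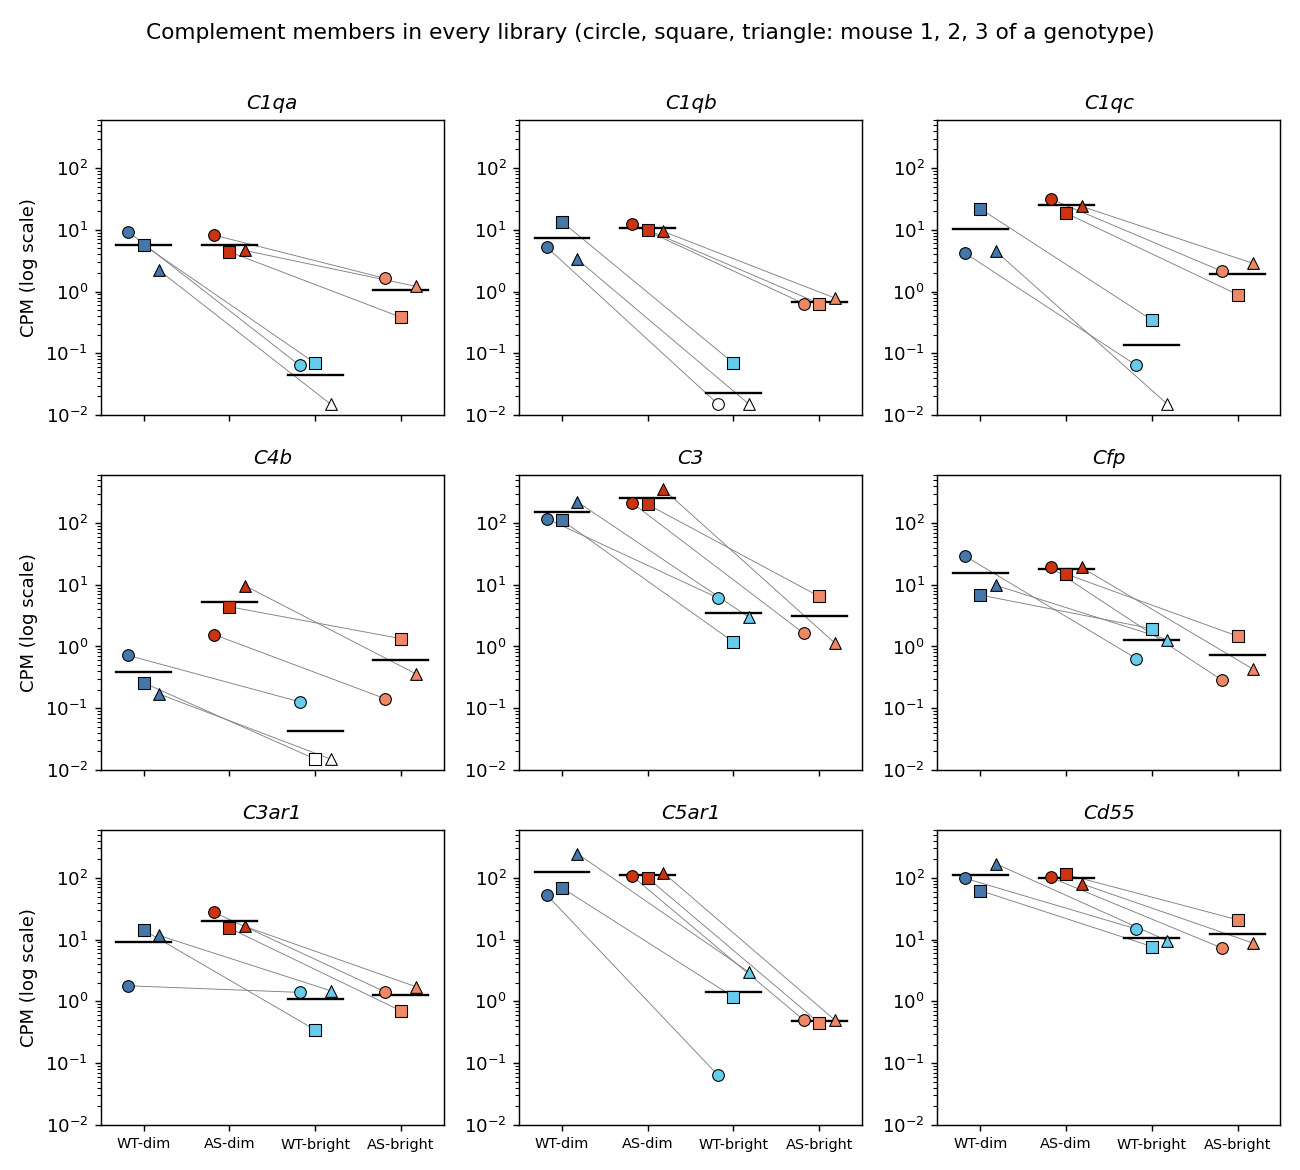
CPM of the 9 complement genes (vertical axis, log scale) in each library by group, with a symbol for each mouse, a black bar for the group mean of 3 and a grey line between the libraries of a mouse. Open symbols mark a library with 0 counts, drawn at the foot of the axis; *C1qa*, *C1qb* and *C1qc* read 0 to 0.346 CPM in the WT-bright tdT and 0.383 to 2.86 in the AS-bright tdT libraries.

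The other genes of the pathway did not all lie on the side of the dim tdT cells. A wider list of 42 complement genes was read, 24 of them listed for dim and 18 for bright tdT cells. Genes listed for dim tdT cells alone, such as *Itgax*, *C5ar2*, *Itgam* and *C2*, or for bright tdT cells alone (*Cfb*), were not fitted here. The counts and medians below leave these genes out, so they do not stand for the whole list. In WT 7 of 15 tested passed, with 5 genes up and 2 down in the bright tdT cells and a median of 0.29, and in AS 10 of 14, 8 up and 2 down, with a median of 1.35, against 25.3% and 55.1% of all genes called and medians of -0.036 and 0.018. Of those that passed, *C1ra* and *C4a* in WT reached the minimum of the filter in all 3 libraries of the bright tdT cells alone, *C8g* in AS likewise, and *Cr2* in both genotypes in those of the dim tdT cells alone, so the counts give no support for their direction. Markers of mesangial and mural cells moved the same way, with sums of 119 to 208 CPM in WT-dim tdT and 401 to 882 in WT-bright tdT libraries (3 of 6 markers higher in the bright tdT cells without overlap) and of 59.1 to 105 and 434 to 790 in AS (6 of 6), and their part was not tested. The proteases that C1q activates were higher in the bright tdT cells. *C1ra* was higher by 4.54 in WT and 2.89 in AS on the log2 scale (14.7 to 19 CPM against 0.425 to 1.29 in WT, and 17.6 to 21.9 against 1.24 to 5.11 in AS), and *C1s1*, which overlaps the antisense gene *Gm16567*, by 2.22 and 4.04. Of the regulators, *Thbd* (thrombomodulin) was higher by 2.62 and 2.96, reaching 640 to 970 CPM in WT and 1105 to 1596 in AS, and *Cr1l*, the membrane regulator Crry, by 0.90 and 1.22. *C4a* was higher by 3.48 in WT and had 0.59 (adjusted p = 0.261) in AS. *Serping1* (C1 inhibitor), *Clu* (clusterin), *Cd59a* (a blocker of the membrane attack complex) and *C8g*, which *Fbxw5* overlaps on the other strand, were higher by 3.89, 2.69, 2.07 and 1.48 in AS, and had 0.87, -0.42, 0.29 and 0.15 in WT, where none passed. Lower in the bright tdT cells were *Itgb2*, the shared chain of the leukocyte complement receptors, by -7.78 and -7.28, and *Cr2*, a receptor of B cells, by -4.49 and -6.64.

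Several of these differences moved with a single library. In WT the call of *C4a* was lost without WT-dim tdT replicate 2 or 3 (3.05 and 3.54, adjusted p = 0.0657 and 0.054) and its value was 2.64 without WT-bright tdT replicate 3. Without WT-bright tdT replicate 3, *Itgb2* was at -8.52 and *Cr2* at -6.23, and *C1ra* was at 5.19 without WT-dim tdT replicate 2. In AS the call of *C8g* was lost without AS-dim tdT replicate 1 or 3 or any AS-bright tdT library (1.05 to 1.64, adjusted p from 0.0529 to 0.16). The AS values were 4.78 for *Serping1* and 4.75 for *C1s1* without AS-dim tdT replicate 1, 3.34 for *Clu* without AS-dim tdT replicate 2, 3.62 for *C1ra* without AS-dim tdT replicate 3 and -7.27 for *Cr2* without AS-bright tdT replicate 2.

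**Figure D3:**
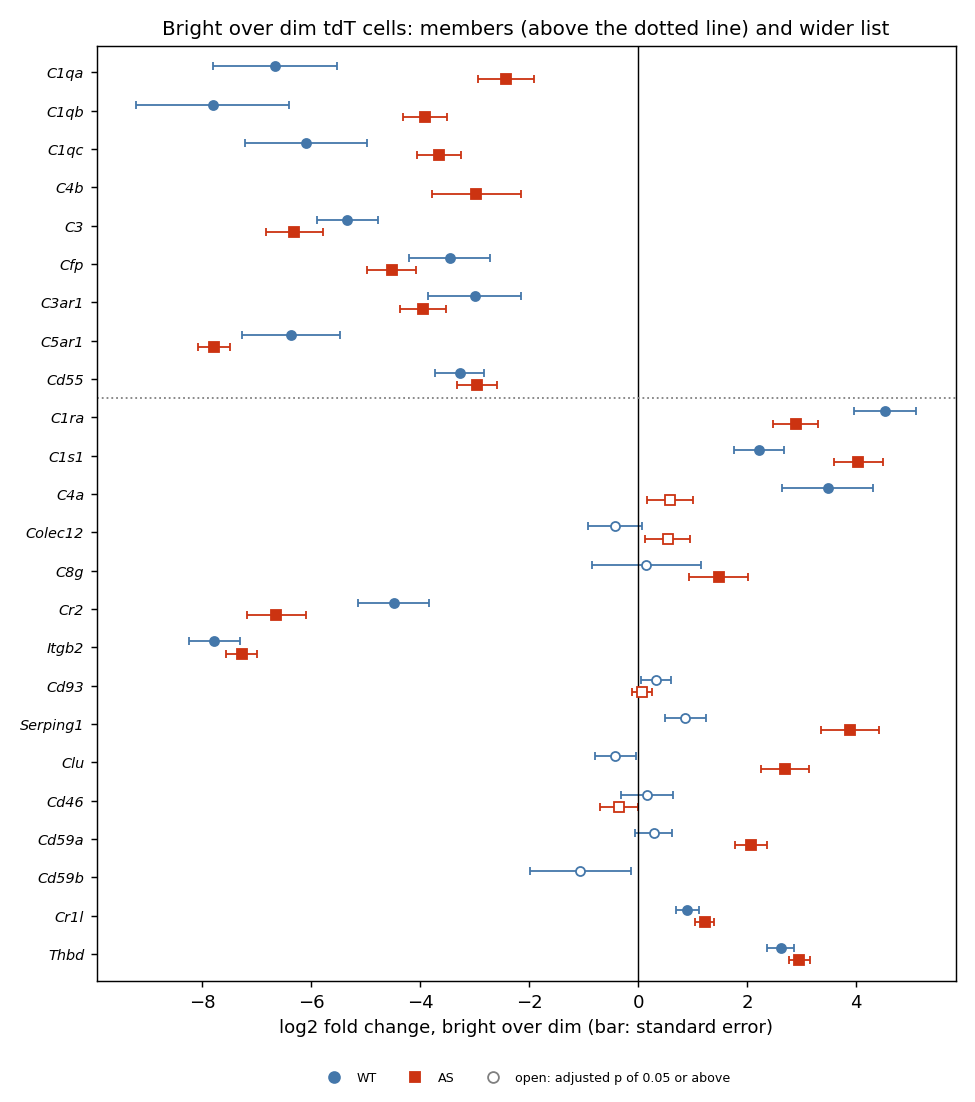
Log2 fold change of bright over dim tdT cells (horizontal axis, bars 1 standard error) for the complement genes above the dotted line and the wider list below it, in WT (circles) and AS (squares), filled where the adjusted p was below 0.05. The genes above the line lie between -7.81 and -2.43, while *C1ra*, *C1s1*, *Thbd* and *Cr1l* lie to the right of 0 in both genotypes.

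Between genotypes, 1 of the 9 complement genes passed the test in the dim tdT cells, where 8.63% of 14637 genes passed (2.21% higher and 6.42% lower in AS). This was *C4b*, higher in AS by 3.72 on the log2 scale (SE 0.91, adjusted p = 0.0352), a 13.2-fold difference, with the lowest AS library at 1.56 CPM and the highest WT library at 0.716. It reached the minimum of the filter in 3 AS libraries and in 0 of 3 WT libraries, so that it was tested because it was high in AS. The call was lost without any 1 of the 6 libraries: the value was 4.51, 3.48 and 3.38 without WT-dim tdT replicates 1, 2 and 3 and 4.15, 3.77 and 2.91 without AS-dim tdT replicates 1, 2 and 3, with adjusted p from 0.0676 to 0.122. With the replicate block *C4b* was at 3.63 (adjusted p = 0.0772). Between genotypes this block pairs libraries that share a number but are from different mice, so the pairing has no basis in the design. *C4b* was higher in AS under all 14 alternatives and passed in 6. *C4a* was also higher in AS, by 2.29 (SE 0.62, adjusted p = 0.0456), at 1.27, 1.58 and 1.99 CPM against 0.537, 0.0861 and 0.34, and likewise reached that minimum in AS alone. It too lost its call without any 1 library (1.80 to 2.85, adjusted p from 0.0807 to 0.158) and with the replicate block (2.30, adjusted p = 0.101).

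For the other 8 genes no difference between AS-dim tdT and WT-dim tdT cells passed. *C3* had a log2 fold change of 0.76 (SE 0.33, adjusted p = 0.189), with AS at 200 to 355 CPM and WT at 111 to 220, and it reached 1.15 (adjusted p = 0.0468) without WT-dim tdT replicate 3. *C1qc* had 1.27 (SE 0.61, adjusted p = 0.229), with AS at 18.6 to 31.8 CPM and WT at 4.21 to 21.9, and 2.45 (adjusted p = 0.0378) without WT-dim tdT replicate 2. *C3ar1* had 1.09 (SE 0.59, adjusted p = 0.29), and its AS libraries, at 15.4 to 27.8 CPM, all lay above its WT libraries, at 1.79 to 14.3. *C1qb* had 0.51 (SE 0.52), and 1.25 without WT-dim tdT replicate 2, and *C1qa* 0.01 (SE 0.57), the latter with means of 5.75 ± 2.14 (SD, n = 3) CPM in AS and 5.74 ± 3.55 (SD, n = 3) in WT. *Cfp* had 0.21 (SE 0.53), *Cd55* -0.17 (SE 0.35) and *C5ar1* -0.18 (SE 0.52). The sign of these last 3 and of *C1qa* turned when 1 library was left out: *C5ar1* was at 0.83 and *Cd55* at 0.29 without WT-dim tdT replicate 3, *Cfp* at -0.18 and -0.033 without WT-dim tdT replicates 2 and 3, and *C1qa* at -0.033, -0.38 and -0.37 without WT-dim tdT replicates 2 and 3 and AS-dim tdT replicate 1. *Cfp* moved most the other way, to 1.09 (adjusted p = 0.124) without WT-dim tdT replicate 1. Of the 9 genes 2, *C4b* and *C3ar1*, did not overlap between the genotypes, against 31.2% of all genes tested. The median of the 9 was 0.51, against -0.02 over all genes.

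Of the wider list, 4 of 19 tested passed between AS-dim tdT and WT-dim tdT cells, *C4a* higher and 3 regulators lower in AS, against 8.63% of all genes, and 13 of the 19 did not overlap between the genotypes (6 higher and 7 lower in AS), against 31.2%. *Clu*, a fluid-phase inhibitor of the terminal pathway, read 174, 514 and 310 CPM in WT and 32.1, 84.6 and 28.3 in AS, and fell by 2.79 on the log2 scale (SE 0.52, adjusted p = 0.0241). *Serping1* read 24.4, 12.7 and 18.5 CPM in WT and 6.23, 1.08 and 2.55 in AS, and fell by 2.47 (SE 0.57, adjusted p = 0.0379). *Cd59a*, which has a neighbouring paralogue in *Cd59b*, read 53.7, 31.4 and 24 CPM in WT and 11.1, 9.05 and 4.87 in AS, and fell by 2.13 (SE 0.44, adjusted p = 0.0283). The WT and AS libraries did not overlap for any of the 3. Each call rested on single libraries: *Clu* was at -2.38, -2.59 and -2.52 (adjusted p = 0.0515, 0.116 and 0.116) without WT-dim tdT replicate 2 and AS-dim tdT replicates 1 and 3, and at -3.51 without AS-dim tdT replicate 2. *Serping1* lost its call without WT-dim tdT replicate 1 or 2 or any AS-dim tdT library (-3.38 to -2.11, adjusted p from 0.0514 to 0.147), and with the replicate block (-2.62, adjusted p = 0.0525). *Cd59a* lost its call without WT-dim tdT replicate 1 or any AS-dim tdT library (-2.42 to -1.72, adjusted p from 0.0507 to 0.122). Among genes that did not pass, *Itgax* had 0.97 (adjusted p = 0.0635), *Itgb2* 0.67 (adjusted p = 0.0768), *C2* -3.83 (adjusted p = 0.0857), *C8g* -3.49 (adjusted p = 0.0897) and *Cd93* 0.63 (adjusted p = 0.131). *Itgax*, *Itgb2* and *Cd93* passed without WT-dim tdT replicate 3 (1.14, 0.86 and 0.85) and *C2* without WT-dim tdT replicate 2 (-4.41), but the AS counts of *C2* lay in replicate 2 alone, and without it the fitted value was -9.39 and did not pass. *C8g* passed by the likelihood ratio test and by DESeq2 (adjusted p = 0.0131 and 0.00562), and was at -1.63 and did not pass without WT-dim tdT replicate 1, the library with the highest proximal tubule sum. *C8g* is overlapped by *Fbxw5* on the other strand and *C2* by *Gm20547* and *Zbtb12*, so the origin of their reads is uncertain.

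Markers of several cell types moved with genotype in the dim tdT cells. The macrophage and monocyte sum was 6114, 5036 and 9465 CPM in WT and 11424, 11216 and 14574 in AS, the endothelial sum 1238, 1401 and 760 in WT and 234, 307 and 321 in AS, and the proximal tubule sum 11681, 2590 and 2660 in WT and 82.2, 994 and 34.2 in AS. Of the 12 macrophage and monocyte markers 6 were higher in AS without overlap (*Adgre1*, *Csf1r*, *Lyz2*, *Fcgr1*, *Cx3cr1* and *Ccr2*), 1 was lower (*Mertk*) and 5 overlapped. The T and NK cell sum was 122 to 171 CPM in WT and 169 to 222 in AS, overlapping slightly, with 4 of 8 markers higher without overlap. Of the 14 endothelial markers 11 were lower in AS without overlap, and of the 9 proximal tubule markers 9 were. The podocyte sum was 682 to 1374 CPM in WT and 489 to 518 in AS, with 3 of 7 markers lower without overlap, and the mesangial and mural sum 119 to 208 in WT and 59.1 to 105 in AS, with 1 of 6 listed. The part of these cell types in the differences of the complement genes was not tested.

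**Figure D4:**
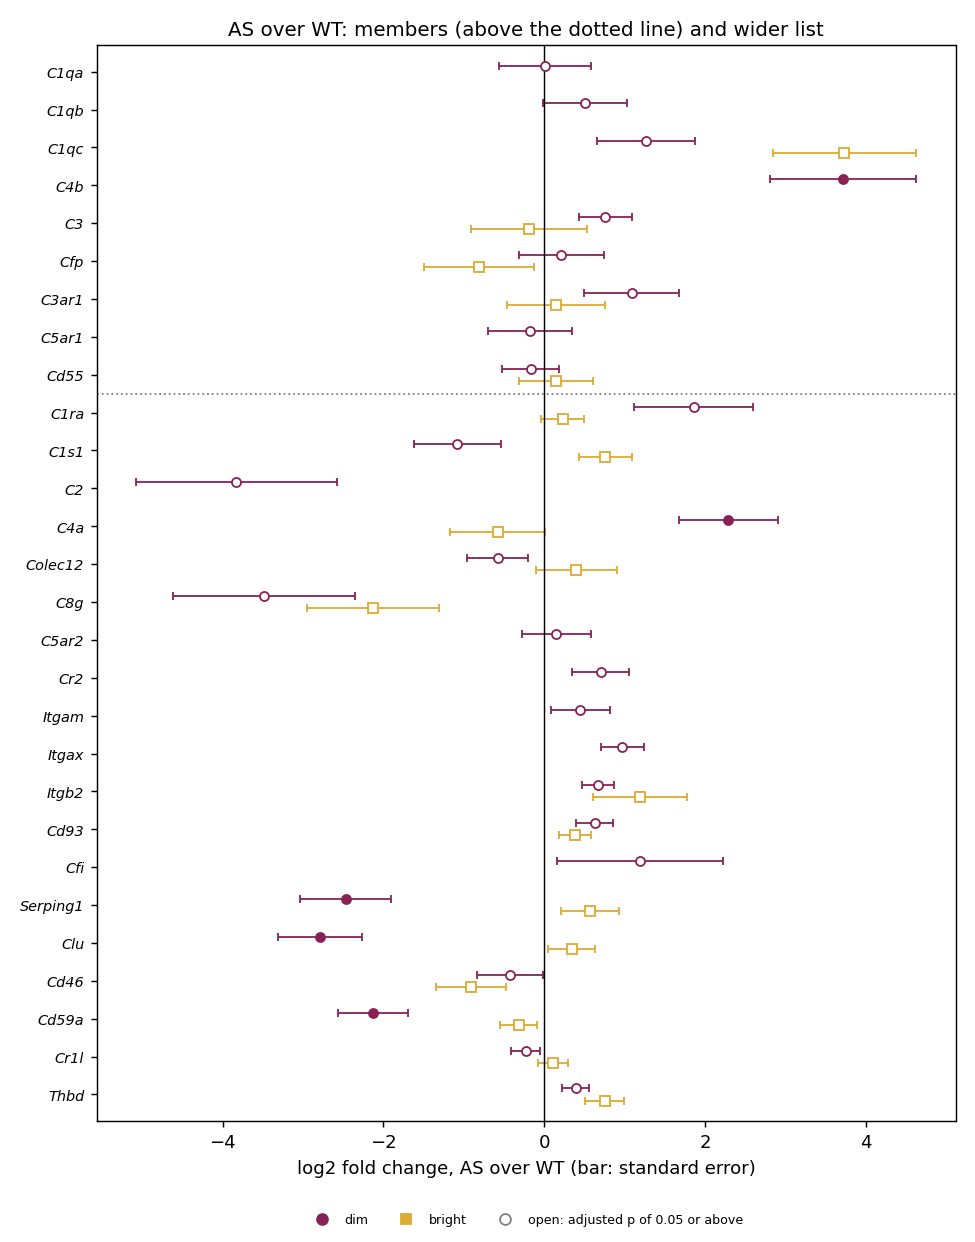
Log2 fold change of AS over WT (horizontal axis, bars 1 standard error) for the complement genes above the dotted line and the wider list below it, in dim tdT (circles) and bright tdT cells (squares), filled where the adjusted p was below 0.05. Filled points are *C4b* (3.72), *C4a* (2.29), *Serping1* (-2.47), *Clu* (-2.79) and *Cd59a* (-2.13), all in dim tdT cells, and *C1qc* in bright tdT cells is the open square at 3.73.

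In the bright tdT cells no complement gene passed between the genotypes. By edgeR's quasi-likelihood test 0 of 5 complement genes tested passed, against 0.452% of 14396 genes. DESeq2 called 0 of 3, against 1117 of 13231 genes, and gave no adjusted p for *C1qc* and *Cfp*. At an unadjusted p under 0.05 in the quasi-likelihood test stood 1 of 5, against 3145 of 14396 genes. The likelihood ratio test called the same 1 of 5, against 827 of 14396 genes. The gene was *C1qc*, with 1, 5 and 0 counts for WT against 30, 14 and 40 for AS, and 3.73 as its log2 fold change (SE 0.89, unadjusted p = 0.000926, adjusted p = 0.0593). Its adjusted p was 0.00389 in the likelihood ratio test and 0.0413 without AS-bright tdT replicate 2 (4.11), and from 0.00389 to 0.299 over the 13 of 14 alternatives that gave one. With 1 library left out the value was 3.14 to 5.52, the highest without WT-bright tdT replicate 2, the library with 5 of the 6 WT counts, where it did not pass. *C1qc* reached the minimum of the filter in 3 AS libraries and in 0 of 3 WT libraries, so that it was tested because it was high in AS. *C1qa* held 1, 1 and 0 counts against 23, 6 and 17, in sum 46 against 2, a ratio of 24 with a counting interval of 6.27 to 204. *C1qb* had 0, 1 and 0 counts against 9, 10 and 11, in sum 30 against 1, a ratio of 31.3 with a counting interval of 5.2 to 1276. Both were too scarce for the filter, and with every gene kept their adjusted p was 0.0913 and 0.0887. All 3 chains were higher in 3 of 3 AS libraries than in any WT library. *C1qc* was the 1 gene of the 5 tested whose groups did not overlap, against 24.7% of all genes.

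The macrophage and monocyte sum of the bright tdT libraries also lay higher in AS, at 410, 327 and 407 CPM against 261, 246 and 281 in WT, over 9 of 12 markers listed. Of the 9, 3 were higher in AS without overlap (*Adgre1*, *Lyz2* and *Ccr2*) and 6 overlapped. Without *Cd14* the sum overlapped between the genotypes, at 138, 137 and 98.5 CPM in WT and 169, 166 and 130 in AS. The podocyte sum stood higher in AS too, at 1310 to 1483 CPM against 941 to 1170, with 5 of 7 markers higher without overlap, and 8 of 14 endothelial markers were higher without overlap while their sums overlapped (15967 to 18613 against 10923 to 16215). The part of these markers in the C1q difference was not tested.

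*C4b* held 28 counts over the AS-bright tdT and 2 over the WT-bright tdT libraries, a ratio of 14.6 with a counting interval of 3.68 to 126, of which 21 counts were in AS replicate 2. A library of each genotype held 2 counts. The remaining genes showed no difference past the threshold. The log2 fold change was -0.19 (SE 0.72) for *C3* (-1.37 to 0.55 with 1 library left out), 0.15 (SE 0.61) for *C3ar1*, -0.81 (SE 0.68) for *Cfp* (-1.87 without AS-bright tdT replicate 2) and 0.15 (SE 0.46) for *Cd55*, and *C5ar1*, below the filter, read 0.0636, 1.18 and 2.98 CPM in WT against 0.496, 0.447 and 0.5 in AS. The sign turned without 1 library for *C3* (0.55, 0.089 and 0.17 without WT-bright tdT replicate 1 and AS-bright tdT replicates 1 and 3), *C3ar1* (-0.26 and -0.14 without WT-bright tdT replicate 2 and AS-bright tdT replicate 3) and *Cd55* (-0.04 and -0.48 without replicate 2 of either genotype). In the wider list 0 of 13 passed by edgeR's quasi-likelihood test and 0 by its likelihood ratio test, with 3 at an unadjusted p under 0.05 and 1 by DESeq2, *Thbd*, at 0.75 (SE 0.24, adjusted p = 0.122, and 0.0466 by DESeq2). Over all genes 3145 of 14396 had an unadjusted p under 0.05, and DESeq2 called 1117 of 13231.

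Whether the AS over WT difference itself was unlike in the 2 subpopulations was asked by the interaction of genotype and subpopulation over all 12 libraries. By edgeR's quasi-likelihood test 0 of 9 complement genes passed, against 3.82% of 15084 genes. At an unadjusted p under 0.05 in that test stood 1 of 9, against 2808 of 15084 genes. The likelihood ratio test and DESeq2 each called 2 of 9, against 1126 of 15084 and 1186 of 15002 genes. The 2 genes were *C1qa* and *C1qb*, with interaction values on the log2 scale, positive where AS over WT was larger in the bright tdT cells, of 4.31 (SE 1.58, adjusted p = 0.157) and 3.96 (SE 1.92, adjusted p = 0.298). Over 19 alternatives the adjusted p was 0.00866 to 0.322 for *C1qa* and 0.02 to 0.445 for *C1qb*. *C1qc* had 2.50 (SE 1.48). *C4b* had -0.13 (adjusted p = 0.993), and -1.59 to 2.28 with 1 library left out, too uncertain to place. No SE is given for it, since the fold change and F were both close to 0. *C3* had -0.91 (SE 0.81), *C3ar1* -0.89 (SE 1.06), *C5ar1* -1.36 (SE 1.23) and *Cfp* -0.98 (SE 1.04). With 1 library left out the value was 3.77 to 4.70 for *C1qa*, 3.04 to 5.61 for *C1qb* and 1.14 to 4.14 for *C1qc*, lowest for *C1qb* and *C1qc* without WT-dim tdT replicate 2 and highest without WT-bright tdT replicate 2. The sign for *C4b* turned without WT-dim tdT replicate 3 (0.22), AS-dim tdT replicate 3 (0.68), WT-bright tdT replicate 1 (2.28) or AS-bright tdT replicates 1 and 3 (0.31 and 0.13), and for *Cd55*, at 0.37, without WT-dim tdT replicate 3 (-0.088) or AS-bright tdT replicate 2 (-0.40). In the wider list 3 of 16 passed, *Clu* at 3.17 (SE 0.64, adjusted p = 0.0159), *Serping1* at 3.10 (SE 0.70, adjusted p = 0.027) and *Cd59a* at 1.86 (SE 0.47, adjusted p = 0.047), while *C4a* had -2.82 (adjusted p = 0.14, and -3.38 to -1.96 with 1 library left out) and *C8g* 1.42 (adjusted p = 0.70). The call of *Clu* was lost without AS-dim tdT or AS-bright tdT replicate 1 (2.83 and 2.92, adjusted p = 0.0628 and 0.0524) and its value was 3.85 without AS-dim tdT replicate 2. *Serping1* lost its call in 7 and *Cd59a* in 11 of the 12 fits without 1 library (2.70 to 3.83 and 1.46 to 2.08, with adjusted p up to 0.0778 and 0.113). Endothelial and podocyte markers, given above, were also lower in AS in the dim tdT and higher in the bright tdT cells. Their part in the interaction was not tested. The median over all genes was 0.14, and -0.027 when library sizes alone set the scale, so values near 0 have no direction.

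The libraries of a group were not alike in their complement genes. Among the WT-dim tdT libraries, replicate 3 was highest in *C5ar1*, *C3* and *Cd55* (247, 220 and 170 CPM), and its neutrophil sum was 2068 CPM against 486 and 632, with *S100a9* at 641 against 133 and 127 and *Csf3r* at 1037 against 262 and 390. Replicate 2 was highest in *C1qb*, *C1qc* and *C3ar1* (13.5, 21.9 and 14.3 CPM), and replicate 1 in *C1qa* and *Cfp* (9.31 and 29.2 CPM) and lowest in *C3ar1*. Replicate 1 also held the highest proximal tubule sum, at 11681 CPM. In the bright tdT cells, *C3*, *C4b* and *Cd55* were highest in WT replicate 1 and in AS replicate 2, and these were the libraries with the highest proximal tubule sum of their group, at 5017 CPM against 663 and 939 in WT and 1020 against 87.2 and 78.5 in AS. The part of neutrophil or tubule RNA in these levels was not tested.

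Across the 12 libraries the deviations from the group means were alike for some of the genes. As a description over 12 libraries, with no test, Pearson's r of the deviations of log2 CPM was 0.84 for *C1qb* and *C1qc*, 0.77 for *C3* and *Cd55* and 0.55 for *C3* and *C4b*. *C1qa* was less like the other chains, at 0.42 with *C1qb* and 0.45 with *C1qc*. *C3ar1* and *Cfp* went opposite ways (-0.82), as did *C1qc* and *Cd55* (-0.73). These points share libraries and depth.

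Ordered by mean CPM per kilobase of the deposited gene length, *C3* came first in the dim tdT cells of both genotypes, at 22.2 ± 9.07 (SD, n = 3) in WT and 38 ± 12.8 (SD, n = 3) in AS, followed by *C5ar1* (21.6 and 19.2) and *Cd55* (13.1 and 11.8). *C4b* came last, at 0.055 and 0.75. In WT neighbours in the order overlapped over their 3 libraries down to *C3ar1*, and *C4b* alone stood apart from the gene above it. In AS *C3* and *C5ar1*, *C5ar1* and *Cd55*, and *C3ar1* and *C4b* stood apart, and *C1qc* (11.5), *C1qb* (9.7), *Cfp* (8.64) and *C1qa* (5.51) lay between with overlaps. In the bright tdT cells *Cd55* came first, at 1.27 ± 0.44 (SD, n = 3) in WT and 1.47 ± 0.894 (SD, n = 3) in AS. Next came *Cfp* (0.629) in WT and *C1qa* (1.03) in AS, and every gene overlapped its neighbour.

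The 3 genes most like each complement gene were found among 15084 genes by Pearson's r of log2 CPM over the 12 libraries, which mostly follows the difference between dim and bright tdT cells. *C3* was most like *F5* (0.996), *Clec4a3* and *Ccl9* (0.992 each), and *C5ar1* most like *Fpr2* (0.995), *Prkar2b* and *Cdt1* (0.989 each). *C1qb* was most like *Rasgef1b* (0.988), *H2-Ab1* (0.981) and *Evl* (0.978), and *C1qc* most like *Rnf19b* (0.984), *C1qb* (0.973) and *Slamf7* (0.971). *C1qa* was most like *Rplp0* (0.97), *Rasgef1b* (0.962) and *Gm14165* (0.96). *Cd55* was closest to *Stk26* (0.984), *C3ar1* to *Sf1* (0.972), *Cfp* to *Cntrl* (0.97) and *C4b* to *Tacc3* (0.914), and *C4b* had the lowest best r of the 9.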

How the data were processed

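Sorted cells of 3 WT and 3 AS mice were measured by RNA-seq, with 1 dim tdT and 1 bright tdT library per mouse. The authors trimmed and aligned the reads with STAR 2.6.0c to GRCm38.p5 with the Gencode annotation and deposited the number of reads per gene, so the deposited counts are not normalized. The kit was stranded, and the strand counted is not given in the sources used here. The authors also deposited RPKM (per length and library size), average logCPM and log2 fold changes on the log2 scale, a likelihood ratio statistic (a score) and p-values of their own AS over WT comparisons. These deposited columns were not used.

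The complement genes, the wider list and the marker lists were chosen with earlier results of these data known. The quasi-likelihood test of edgeR 4.0.16 (R 4.3.3) was run on the counts (TMM scaling, filterByExpr, Benjamini-Hochberg adjustment over the genes that passed the filter in a fit, threshold 0.05). AS over WT was fitted within a table of 6 libraries, bright over dim tdT within a genotype on the genes of both tables, and the interaction over 12 libraries. Standard errors are the log2 fold change divided by the root of F. Adjusted p-values in the text are from this test unless another is named. CPM use one TMM scale over the 12 libraries, and the log2 CPM of correlations a prior count of 2. The complement genes were always named, others of the wider list where they passed in at least 1 comparison of 2 groups, with further examples by level, and for each complement gene the 3 most alike genes. A gene of the wider list is not reported here and was left out of its counts, as was an identifier deposited under the name *Itgam* that Gencode M21 names *Gm49368*. *Csf1r*, *Adgre1* and other markers stand beside results. Coordinates are from Gencode M21 on GRCm38 and promoter windows from RefSeq. Intervals of count ratios are exact and cover counting error only.

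Replicates of a group differed by a chi-square of 29.5 to 104 per degree of freedom, so none was counted as a repeat. The dim and bright tdT libraries of the same number within a genotype are from 1 mouse by the sample labels, and their deviations from the group means correlated by 0.0796 to 0.385. Alternatives were RLE scaling, library sizes alone, no filter, the likelihood ratio test, DESeq2 1.42.0, a replicate block, all 12 libraries in 1 fit, each library left out and, added after the data were seen, edgeR's version 3 fit. The tests were tried on simulated data, and that trial is not used as support for any result here. An exact permutation test of 3 against 3 cannot go below 0.1.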

Additional observations from a re-analysis of the deposited data

Results flagged for a closer look

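For 3 genes of the wider complement list the AS over WT difference differed between the bright and the dim tdT cells in the test of the interaction over all 12 libraries. The interaction was 3.17 on the log2 scale for *Clu*, 3.10 for *Serping1* and 1.86 for *Cd59a*, higher in bright than in dim tdT cells. *Clu* passed in 17, *Serping1* in 11 and *Cd59a* in 5 of 19 alternatives. AS over WT was -2.79, -2.47 and -2.13 in the dim tdT cells and 0.34, 0.57 and -0.32 in the bright tdT cells for the 3 genes. Of the 14 endothelial markers 11 were lower in AS in the dim tdT and 8 higher in the bright tdT cells, without overlap. Of the 7 podocyte markers 3 were lower and 5 higher likewise, while 9 and 2 of the 9 proximal tubule markers were lower. The part of these markers in the interaction was not tested. The groups hold 3 libraries each, too few for a search for single samples that stand apart.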

How the results depend on the processing

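The direction of bright over dim tdT was kept for every complement gene that passed, in both genotypes and under all 14 alternatives. For the 6 of 8 in WT and 5 of 9 in AS that passed the filter through the dim tdT cells, this gives no support for a direction. The others were *C3* and *Cd55* in both genotypes and *C1qc* and *C3ar1* in AS. The comparisons of genotypes depended on the fit. For AS over WT in dim tdT cells the complement genes called fell from 1 to 0 with edgeR's version 3 fit and with the replicate block. The wider list gave 2 calls with the version 3 fit and 2 with the replicate block. All genes gave 1946 calls with the likelihood ratio test, 2213 with DESeq2, 582 with the version 3 fit, 285 with the replicate block and 2143 with all 12 libraries in 1 fit, against 1263. For AS over WT in bright tdT cells the likelihood ratio test called 1 complement gene, DESeq2 called 1 gene of the wider list, and all genes gave 39 calls with no filter, 827 with the likelihood ratio test, 1117 with DESeq2, 0 with the version 3 fit, 0 with the replicate block and 140 with all 12 libraries, against 65. The interaction gave 2 complement genes with the likelihood ratio test and 2 with DESeq2, 1 of the wider list with the version 3 fit, and over all genes 1126, 1186 and, with the replicate block, 865 calls, against 576. The causes were not tested.

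With 1 library left out, complement genes called ranged from 0 to 1 and from 0 to 1 for AS over WT in dim and bright tdT cells, from 7 to 8 and from 8 to 9 for bright over dim tdT in WT and AS, and from 0 to 0 for the interaction. The wider list ranged from 0 to 6, 0 to 0, 6 to 7, 9 to 10 and 0 to 3, and all genes from 0 to 1825, 0 to 281, 2534 to 3435, 6651 to 7490 and 254 to 890, in the same order.

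Signs turned for values that did not pass. For AS over WT in dim tdT cells *C1qa* was at -0.0046 with RLE scaling, -0.011 with the likelihood ratio test, -0.026 with DESeq2 and -0.012 with the version 3 fit, and *C5ar1* at 0.17 with the replicate block. With 1 library left out these ranged from -0.38 to 0.56 and from -0.53 to 0.83, *Cfp* from -0.18 to 1.09 and *Cd55* from -0.50 to 0.29. In bright tdT cells *C3* ranged from -1.37 to 0.55, *C3ar1* from -0.26 to 0.46, *Cd55* from -0.48 to 0.49 and *C4a* from -0.90 to 0.25. For bright over dim tdT in WT *C8g* ranged from -0.93 to 1.96 and *Clu* from -0.74 to 0.045, and for the interaction *C4b* from -1.59 to 2.28, *Cd55* from -0.40 to 0.64 and *C8g* from -0.43 to 2.34.

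The WT and AS libraries of a number are from different mice, and as pairs they correlated by -0.151 to 0.125 in their deviations. With mice paired as a replicate block no call of a complement gene for bright over dim tdT changed. At 0 to 5 counts a library, C1q and *C4b* levels in WT-bright tdT cells are limited by depth, and their absence there cannot be shown.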
